A study of Mus musculus with 12 samples.

Results

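The Itm2 genes encode the endogenous proteins from whose family the injected chaperone domain was taken. Furin, Sppl2a and Sppl2b encode proteases that cut Bri2, the product of Itm2b. These 6 genes, Itm2a, Itm2b, Itm2c, Furin, Sppl2a and Sppl2b, were chosen by name for this biology, with earlier results of these data known. All 6 were found among the 55487 genes of the count table, and all 6 were among the 15425 genes that passed the filter on low counts.

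RNA was sequenced from CD11b+ microglia isolated with magnetic beads from papain-dissociated cerebral cortex of male mice. WT mice were compared with App NL-G-F mice, a knock-in line that carries a humanised amyloid β sequence with the Swedish, Iberian and Arctic mutations in the endogenous App gene and forms amyloid plaques. Each strain received either PBS as vehicle (veh) or rh Bri2 BRICHOS R221E, a recombinant human BRICHOS domain, at 10 mg/kg. Both agents were given i.v. as 24 injections over 12 weeks from 9 months of age, and tissue was taken after 4 further weeks without injections. Each of the 4 groups held 3 libraries, 12 in all, and each library held 12433402 to 17889654 counts. Because the drug is a protein, its presence adds no reads, and the values below are those of the mouse transcripts. CD11b is carried by other myeloid cells as well, so the isolation does not separate microglia from them.

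Bri2, the product of Itm2b, is a type II membrane protein. Furin, a proprotein convertase of the secretory pathway, removes a short peptide from its C-terminus, ADAM10 sheds the BRICHOS domain from the membrane stub, and SPPL2A and SPPL2B, aspartyl proteases of the signal peptide peptidase family, cut the remaining stub within the membrane. Mutations that lengthen the C-terminal peptide of human ITM2B cause familial British and Danish dementia. Itm2c encodes Bri3, which is abundant in brain, and Itm2a encodes the third family member, a gene known from cartilage, T cells and brain blood vessels.

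The furin step is written in the last codons of Itm2b, and the stretch is shown because it links Itm2b to the protease. In the annotated transcript of 266 codons, the last lysine-arginine codon pair, printed in capitals, occupies codons 242 and 243, and 23 codons follow it before the stop.

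Itm2b coding end: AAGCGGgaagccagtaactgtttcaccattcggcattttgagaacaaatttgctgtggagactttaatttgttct

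The 3 Itm2 genes are shown with their promoter windows because Itm2b and Itm2c had higher levels and Itm2a lower levels in App NL-G-F libraries. Each window covers 250 bases before and 50 bases after the RefSeq start in GRCm38.p6, read on the strand of the gene. In the GENCODE M21 annotation Itm2c starts at 85894281, before its RefSeq start. Most of the Itm2c window therefore lies inside the gene as annotated there. Capitals mark the GC box letters GGGCGG or their reverse complement.

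Itm2a, chrX:107403311-107403610, minus strand: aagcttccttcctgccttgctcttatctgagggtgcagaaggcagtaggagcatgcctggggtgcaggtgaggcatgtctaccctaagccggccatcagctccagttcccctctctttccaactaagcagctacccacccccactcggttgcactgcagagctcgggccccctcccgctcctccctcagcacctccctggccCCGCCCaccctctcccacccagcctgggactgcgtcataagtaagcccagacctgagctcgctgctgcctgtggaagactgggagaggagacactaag

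Itm2b, chr14:73385240-73385539, minus strand: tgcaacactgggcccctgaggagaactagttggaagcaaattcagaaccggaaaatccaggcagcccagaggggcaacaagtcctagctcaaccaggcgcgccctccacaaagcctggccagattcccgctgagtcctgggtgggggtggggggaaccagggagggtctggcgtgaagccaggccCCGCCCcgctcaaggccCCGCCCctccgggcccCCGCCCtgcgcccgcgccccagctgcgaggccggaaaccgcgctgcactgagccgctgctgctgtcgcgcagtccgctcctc

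Itm2c, chr1:85894260-85894559, plus strand: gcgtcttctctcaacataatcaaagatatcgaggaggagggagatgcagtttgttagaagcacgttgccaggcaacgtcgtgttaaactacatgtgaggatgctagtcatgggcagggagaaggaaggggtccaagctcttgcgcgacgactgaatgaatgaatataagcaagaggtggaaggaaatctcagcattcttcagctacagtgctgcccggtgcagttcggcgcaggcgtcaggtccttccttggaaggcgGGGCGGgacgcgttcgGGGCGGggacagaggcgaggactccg

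The Itm2a window held 1 match to the GC box, the Itm2b window 3 and the Itm2c window 2, and 35.7% of the 32851 windows in the table held at least 1. Other motifs, also searched on both strands, had no match in the 3 windows. These were the TATA box with the letters TATAAA, found in 13.6% of all windows, the E-box with the letters CACGTG, found in 7.2%, and the PU.1 motif with the letters GAGGAAGT, found in 3.2%. No matches to different motifs could therefore overlap. The number of CG dinucleotides was 7 in Itm2a, 21 in Itm2b and 20 in Itm2c, with a median of 7 over all windows. A match to such letters is a description of the window.

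In GRCm38 with the GENCODE M21 annotation, Itm2a (ENSMUSG00000031239) lies at X:107397099-107403376 on the minus strand, Itm2b (ENSMUSG00000022108) at 14:73362226-73385289 on the minus strand, and Itm2c (ENSMUSG00000026223) at 1:85894281-85908675 on the plus strand. Furin (ENSMUSG00000030530) lies at 7:80388585-80405436 on the minus strand, Sppl2a (ENSMUSG00000027366) at 2:126890391-126933235 on the minus strand, and Sppl2b (ENSMUSG00000035206) at 10:80855275-80868708 on the plus strand. The longest stretch of identical bases between annotated transcripts was 13 or 14 bases for each pair of Itm2 genes and 17 bases for Sppl2a and Sppl2b, which is far shorter than a read. No exon of 5 of the members overlaps an exon of another gene. Furin shares 118 exon bases with Gm44851 on the opposite strand. The libraries were stranded, but the strand setting of the counting is not given in the sources used here.

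Itm2b was among the most abundant transcripts of these libraries. Per kilobase of exon, its mean level over the 12 libraries was 1135 CPM, that is counts scaled to a common library size, at rank 30 of the 15416 genes with a length. Itm2c followed with 347.3 CPM per kilobase at rank 106. Itm2a had 27.29 and Sppl2a 25.28 CPM per kilobase, at ranks 1566 and 1716, so these levels stood close together. Furin had 11.84 CPM per kilobase at rank 3650, and Sppl2b had the lowest level of the members with 5.914 CPM per kilobase at rank 6258. The ratio of the highest to the lowest library was 3.39 for Itm2a, 2.03 for Itm2c, 1.56 for Furin, 1.46 for Itm2b, 1.28 for Sppl2b and 1.12 for Sppl2a. Itm2a thus varied most between libraries and Sppl2a least.

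**Figure D1:**
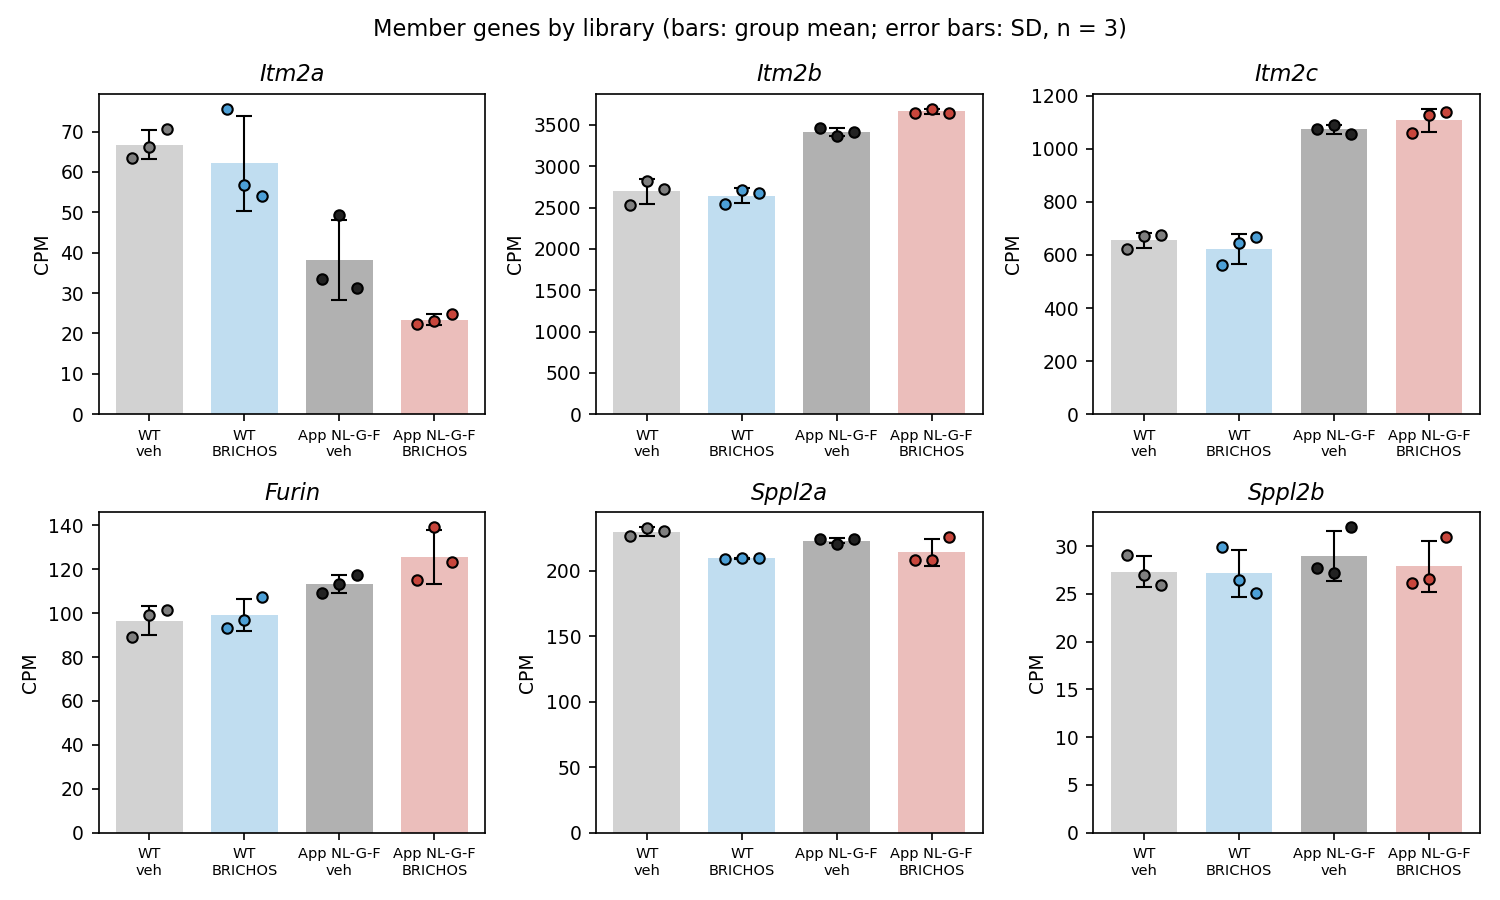
Each panel shows 1 gene, with CPM on a vertical axis that starts at 0 and the 4 groups along the horizontal axis. Points are libraries, bars are group means and error bars are SD of n = 3. Itm2c sits between 1056 and 1138 CPM in the App NL-G-F libraries and between 560.5 and 674.2 CPM in the WT libraries, while Itm2a is lower in every App NL-G-F library than in every WT library.

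The microglial identity of the libraries was checked with 6 markers, whose summed level lay between 21910 and 27460 CPM in the 12 libraries. In App NL-G-F against WT, 5 of these markers (P2ry12, Tmem119, Cx3cr1, Csf1r and Sall1) were called lower under each treatment. Markers of other cells were present too. Under veh the 6 oligodendrocyte markers summed to 9585-16800 CPM in WT and 3143-5551 CPM in App NL-G-F libraries, the 6 astrocyte markers to 367-510 CPM and 1192-3820 CPM, and the 6 endothelial markers to 577.9-648 CPM and 425.2-571.3 CPM. The 4 border macrophage markers, at 274.6-323.2 CPM in WT veh and 117.1-153.9 CPM in App NL-G-F veh libraries, were called lower in 4 of 4 cases under each treatment, and of the 4 neutrophil markers 4 were called lower under veh and 3 in the treated mice. The 6 choroid plexus markers summed to 860.9-3954 CPM in WT veh and 641.9-1979 CPM in App NL-G-F veh libraries, with 0 called, and to 3269-6796 CPM and 648-978.6 CPM in the treated mice, with 6 called lower. In the treated mice 6 of 6 mural, 5 of 5 ependymal, 5 of 6 fibroblast and 4 of 4 B cell markers were called lower as well. Endothelial and neuron markers were each called lower there in 5 of 6 cases, against 21.8% of all genes. Of the 6 oligodendrocyte markers, 2 were called lower under veh and 0 in the treated mice. Of the 6 astrocyte markers, 6 were called higher under veh and 1 in the treated mice. The astrocyte sum in the treated mice was 366.6-658.2 CPM in WT and 549.7-1594 CPM in App NL-G-F libraries. The 6 neuron markers stayed at or below 28.64 CPM and the 6 T cell markers at or below 2.025 CPM in all 12 libraries. Their part in the results below was not tested, unless a value is given. In bulk samples, fewer cells of a type and less RNA per cell cannot be told apart.

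The first question was whether amyloid pathology goes with a different level of the endogenous BRICHOS genes. With veh, Itm2b and Itm2c were higher in App NL-G-F libraries, Itm2a was lower, and Furin was slightly higher, with a call that depends on the processing. Which cells of the isolate carried these differences was not tested. Thus 3 of 6 members were called higher and 1 lower at an adjusted p under 0.05 in edgeR, against 20.1% and 16.9% of all genes tested. Sppl2a and Sppl2b were not called. The median log2 fold change of the 6 members was 0.16, against -0.02 over all genes.

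Itm2c showed the largest upregulation of the members. Its level was 622.8, 670.3 and 674.2 CPM in WT veh libraries and 1074, 1088 and 1056 CPM in App NL-G-F veh libraries. The groups lay far apart, with means of 655.8 ± 28.6 and 1073 ± 15.9 CPM (SD, n = 3). This gave a log2 fold change of 0.71 (SE 0.0682), a ratio of 1.64 with a 95% confidence interval of 1.47 to 1.81 and an adjusted p of 9.85e-06 in edgeR.

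Itm2b, the gene of Bri2, rose by a smaller factor from a higher level. The WT veh libraries had 2535, 2825 and 2723 CPM, and the App NL-G-F veh libraries 3458, 3364 and 3410 CPM. Every App NL-G-F library was above every WT library. The means were 2694 ± 147 and 3411 ± 47.2 CPM (SD, n = 3), with a log2 fold change of 0.34 (SE 0.06), a ratio of 1.27 and an adjusted p of 0.00101 in edgeR.

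Itm2a moved the other way. It had 63.34, 66.29 and 70.64 CPM in WT veh libraries and 33.44, 49.44 and 31.38 CPM in App NL-G-F veh libraries. The groups did not overlap, and the second App NL-G-F veh library stood above the other two of its group. Its log2 fold change was -0.81 (SE 0.164), a ratio of 0.571 with an interval of 0.445 to 0.733 and an adjusted p of 0.00256 in edgeR.

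Furin, the convertase that cuts the C-terminus of Bri2, had 89.05, 99.29 and 101.3 CPM in WT veh libraries and 109.2, 113.1 and 117.2 CPM in App NL-G-F veh libraries. The groups did not overlap, but the gap was narrow. Furin had a log2 fold change of 0.23 (SE 0.0798) with an adjusted p of 0.0422 in edgeR. This call was lost in 7 of the 12 fits that left out 1 library, namely the first or second WT veh library, the second WT library with rh Bri2 BRICHOS R221E, any App NL-G-F veh library, or the third App NL-G-F library with rh Bri2 BRICHOS R221E. The log2 fold change was lowest without the first WT veh library, at 0.17 with an adjusted p of 0.153. It was also lost without the filter on low counts, with an adjusted p of 0.0718.

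The intramembrane proteases differed little. Sppl2a, which is known to cut the N-terminal fragment of the invariant chain in endosomes, had 226.4, 232.9 and 230.5 CPM in WT veh and 223.9, 220.6 and 224 CPM in App NL-G-F veh libraries. The App NL-G-F values lay just below the WT values, with a log2 fold change of -0.05, a 95% interval of -0.14 to 0.05 and an adjusted p of 0.431 in edgeR. Sppl2b had 29.07, 27.01 and 25.9 CPM in WT veh and 27.68, 27.21 and 31.97 CPM in App NL-G-F veh libraries, and these values overlapped. Its log2 fold change was 0.08, with an interval of -0.13 to 0.30 and an adjusted p of 0.532 in edgeR. Counted by libraries alone, 3 members lay above and 2 below without overlap of the groups, against 25.5% and 25.3% of all genes.

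These fold changes are relative to the trimmed mean scaling (TMM). Its factors were 1.045 to 1.103 in WT and 0.8746 to 0.9525 in App NL-G-F libraries, so the choice of scaling bears on every comparison of the strains. With total counts in its place, the median log2 fold change of all genes shifted by -0.19 under veh and by -0.27 under rh Bri2 BRICHOS R221E, and the share of called genes that were higher went from 54.3% to 27.8% and from 48.8% to 18.6%. Itm2a, Itm2b and Itm2c kept their direction and their call in both comparisons, with a log2 fold change of 0.15 for Itm2b under veh (adjusted p 0.0389, edgeR). Furin was then not called, with log2 fold changes of 0.04 under veh and 0.07 under rh Bri2 BRICHOS R221E. With total counts, Sppl2a was called lower, at -0.24 in each comparison, and under rh Bri2 BRICHOS R221E this reversed its direction.

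**Figure D2:**
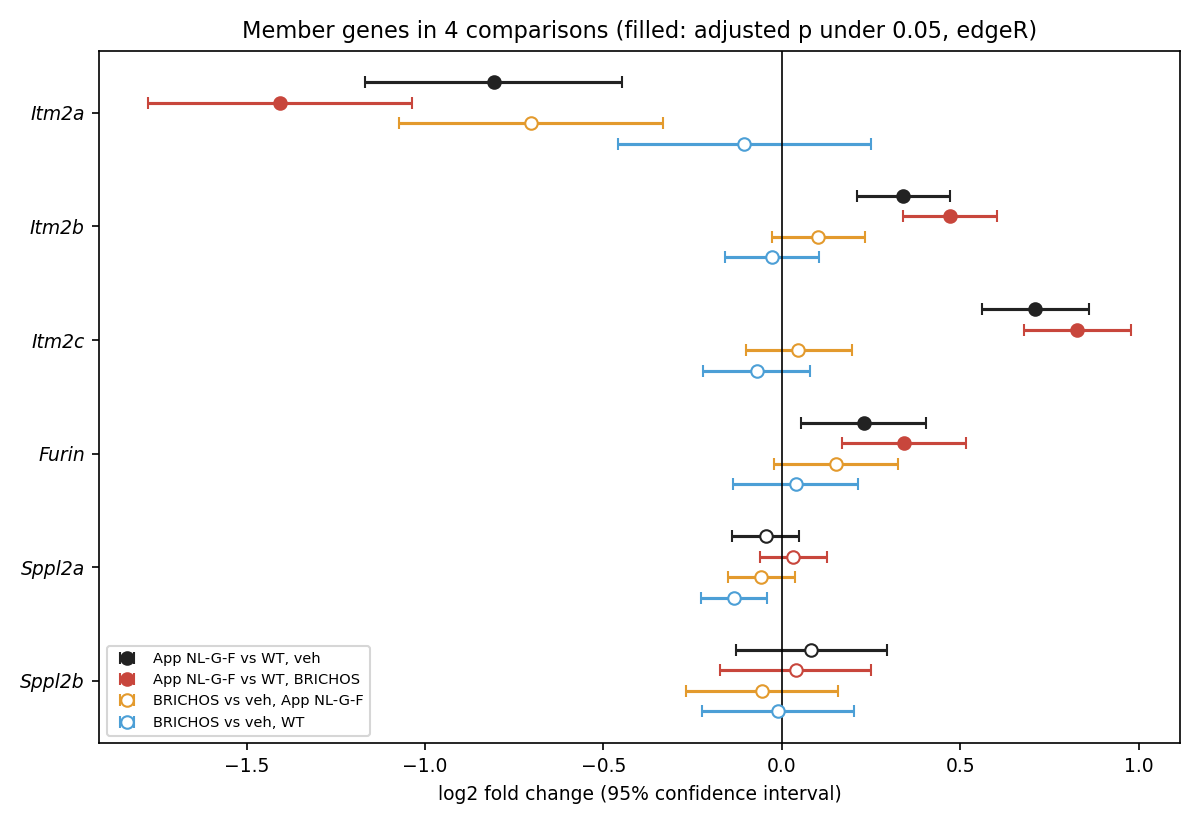
Points are log2 fold changes of the 6 members in 4 comparisons and lines are 95% confidence intervals. Filled points have an adjusted p under 0.05 in edgeR. Filled points occur only in the comparisons of App NL-G-F with WT, for Itm2a, Itm2b, Itm2c and Furin, and with total counts in place of TMM the Furin points are not called and Sppl2a is called lower.

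The comparison of the strains was repeated in the mice that received rh Bri2 BRICHOS R221E, with other libraries. Again Itm2b, Itm2c and Furin were called higher and Itm2a was called lower, 3 and 1 of 6 members against 20.8% and 21.8% of all genes. Their median log2 fold change was 0.19, against -0.04 over all genes. Without overlap of the groups, 3 members were higher and 1 lower, against 25.3% and 26.4% of all genes.

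Itm2c had 560.5, 643.8 and 668.3 CPM in WT and 1058, 1126 and 1138 CPM in App NL-G-F libraries of the treated mice. On the log2 scale the difference was 0.83 (SE 0.0683), a ratio of 1.77 with an adjusted p of 2.68e-06 in edgeR. Itm2b had 2539, 2711 and 2673 CPM against 3646, 3694 and 3644 CPM. Both genes thus stood apart between the strains in every treated library, and Itm2b had a log2 fold change of 0.47 (SE 0.06) and an adjusted p of 8.24e-05 in edgeR.

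Itm2a had 75.63, 56.71 and 53.92 CPM in treated WT libraries and 22.31, 23.14 and 24.82 CPM in treated App NL-G-F libraries. The log2 fold change of -1.41 (SE 0.168, adjusted p 5.26e-05 in edgeR) made Itm2a the only member with an absolute log2 fold change of at least 1 in any comparison with this scaling. Furin had 93.31, 96.71 and 107.5 CPM against 114.9, 139.1 and 123.1 CPM, with a log2 fold change of 0.34 (SE 0.0796) and an adjusted p of 0.00498 in edgeR. This call held in all 12 fits that left out 1 library, and was lost with total counts.

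Sppl2a had 209.3, 209.6 and 209.4 CPM in treated WT and 208.4, 208 and 226.1 CPM in treated App NL-G-F libraries, which overlapped, with an adjusted p of 0.575 in edgeR. Its log2 fold change of 0.03 had an interval of -0.06 to 0.13, and it turned negative with total counts. Sppl2b had 29.89, 26.5 and 25.04 CPM against 26.12, 26.59 and 30.94 CPM, which overlapped too. Its log2 fold change of 0.04 had an interval of -0.17 to 0.25 and an adjusted p of 0.778 in edgeR, and it also turned negative with total counts.

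The effect of rh Bri2 BRICHOS R221E on these genes was then read within each strain. No member was called with treatment in either strain, so no change in the transcripts of the endogenous BRICHOS genes or their proteases passed the test. In App NL-G-F mice 0 of 6 members were called, against 0.00648% of all genes (1 gene), and in WT mice 0 of 6, against 0% of all genes. At an unadjusted p under 0.05, 1673 genes passed in App NL-G-F and 1755 in WT mice. With DESeq2 on all libraries, 1 member (Itm2a) was called in App NL-G-F and 0 in WT mice. Over all 15425 genes, DESeq2 called 86 in App NL-G-F and 80 in WT mice.

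Itm2a was the member with the largest difference between treated and veh App NL-G-F mice. The treated libraries, at 22.31, 23.14 and 24.82 CPM, all lay below the veh libraries, at 33.44, 49.44 and 31.38 CPM. The log2 fold change was -0.70, with an interval of -1.07 to -0.33, an unadjusted p of 0.00146 and an adjusted p of 0.291 in edgeR. It was the 1 member below an unadjusted p of 0.05, against 7.67% of all genes that were lower at this threshold. Without the second App NL-G-F veh library the log2 fold change was -0.47, with an adjusted p of 0.701 in edgeR. DESeq2 on all libraries gave -0.69 with an adjusted p of 0.028, and on the compared groups alone an adjusted p of 0.0546.

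Itm2a alone lay lower without overlap, and Itm2b alone lay higher without overlap, against 7.09% and 6.37% of all genes. The treated App NL-G-F libraries had 3646, 3694 and 3644 CPM of Itm2b and the veh libraries 3458, 3364 and 3410 CPM. This is a small step, with a ratio of 1.07, an interval of 0.98 to 1.18 and an adjusted p of 0.602 in edgeR. Furin, Itm2c, Sppl2a and Sppl2b overlapped between treated and veh App NL-G-F libraries, with ratios of 1.11, 1.03, 0.961 and 0.963. The widest of these 4 intervals was that of Sppl2b, from 0.831 to 1.12, and the 4 adjusted p-values were 0.545 to 0.889 in edgeR.

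In WT mice the member that stood out was Sppl2a. The treated libraries, at 209.3, 209.6 and 209.4 CPM, all lay below the veh libraries, at 226.4, 232.9 and 230.5 CPM, and the treated values lay close to each other. Treatment gave a log2 fold change of -0.14 (SE 0.0427), with an interval of -0.23 to -0.04, an unadjusted p of 0.00882 and an adjusted p of 0.284 in edgeR. It was 1 of 6 members below an unadjusted p of 0.05, against 4.83% of all genes that were lower, and 1 of 6 that were lower without overlap, against 9.19%. The other 5 members overlapped between treated and veh WT libraries. For Itm2b the ratio was 0.98 with an interval of 0.895 to 1.07, and for Itm2a 0.93 with an interval of 0.727 to 1.19.

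Whether the treatment acted differently in the strains was tested as the difference between the treatment effects. No member was called, against 0.00648% of all genes (1 gene). At an unadjusted p under 0.05, 2279 genes passed. DESeq2 on all libraries called 0 members as well, against 234 of 15425 genes. Itm2a had the largest estimate, -0.60 on the log2 scale (SE 0.233), with an unadjusted p of 0.0258 and an adjusted p of 0.273 in edgeR. It was 1 of 6 members lower at the unadjusted threshold, against 9.54% of all genes. The other 5 members had adjusted p-values from 0.503 to 0.913.

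Itm2a was then set beside the endothelial markers, since it is known from brain blood vessels. The endothelial list holds Cldn5, Pecam1, Flt1, Ly6c1, Slco1a4 and Cdh5, and no defining marker was at 0. In App NL-G-F against WT, 5 of the 6 were called lower under veh and 5 of 6 under rh Bri2 BRICHOS R221E, with median log2 fold changes of -0.78 and -1.42. Flt1 was the exception in both, at 0.29 (adjusted p 0.153) and 0.27 (adjusted p 0.178) in edgeR. In App NL-G-F mice with treatment, 0 of 6 were called, with a median log2 fold change of -0.64. The summed level was 358.3-409.7 CPM in treated and 425.2-571.3 CPM in veh App NL-G-F libraries, without overlap. The second App NL-G-F veh library had both the highest Itm2a level and the highest endothelial sum of its group.

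The ratio of Itm2a to these markers depended on Flt1, which made up much of the sum. As a share of all 6 markers, Itm2a was 11.14% ± 1.01 in WT veh and 7.685% ± 1.07 in App NL-G-F veh libraries (SD, n = 3), an exact permutation p of 0.1, the smallest that 3 against 3 allows. Against the 5 markers without Flt1, a choice made after seeing the data, the share was 18.38% ± 1.43 and 18.81% ± 0.572, with an exact permutation p of 0.8. In the treated mice the share of all 6 markers was 11% ± 0.492 in WT and 6.111% ± 0.102 in App NL-G-F libraries, with an exact permutation p of 0.1, and that of the 5 markers was 17.68% ± 1.34 and 18.51% ± 1.28, with an exact permutation p of 0.5. Between treated and veh App NL-G-F mice the exact permutation p was 0.1 for all 6 markers and 0.8 for the 5. Over all 12 libraries the share of the 5 markers lay between 16.42% and 19.79% and that of all 6 between 6.045% and 12.22%, while Itm2a itself varied by a factor of 3.39. Relative to these 5 markers, the differences of Itm2a between the groups were smaller than the spread between libraries, which does not show that they were absent. The 5 markers were those called lower in App NL-G-F libraries, as Itm2a was, so leaving out Flt1 favoured an even share. The p-values for the 5 markers therefore cannot serve as a test of whether Itm2a followed them.

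**Figure D3:**
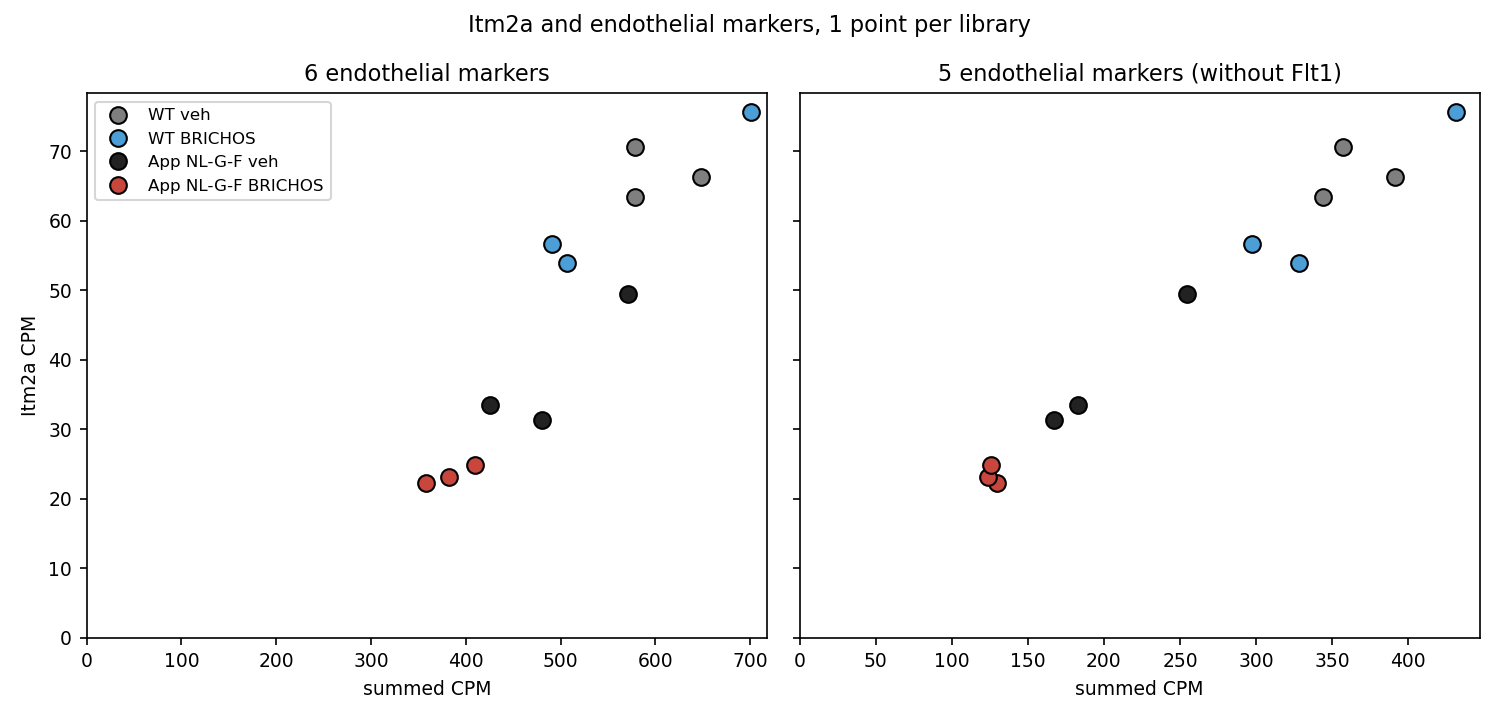
Each point is 1 library, with the CPM of Itm2a on the vertical axis and the summed CPM of endothelial markers on the horizontal axis, for all 6 markers on the left and without Flt1 on the right. Itm2a was 6.045% to 12.22% of the sum of all 6 markers, with lower shares in App NL-G-F libraries. It was 16.42% to 19.79% of the sum without Flt1, a marker left out after seeing that it was not lower in App NL-G-F libraries.

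The genes whose levels followed those of each member most closely were read over the 12 libraries. Over the 12 libraries, the genes with the highest Pearson r to Itm2a were Jcad (0.992), Adgrf5 (0.991) and Abcb1a (0.99). With the group means removed, they were Kif26a (0.959), Tek (0.954) and Card10 (0.946). For Itm2b they were Tmem160 (0.994), Tapbp (0.99) and Fuca1 (0.99), and with the means removed Pycard (0.95), Hmgn3 (0.919) and Gm10767 (0.917). For Itm2c they were Oxct1 (0.996), Gapdh (0.995) and Serpine2 (0.995), and with the means removed Syce2 (0.984), Sdf2l1 (0.956) and 2310009A05Rik (0.949). These r values are on log2 CPM, describe 12 libraries that share their scaling, and largely follow the strain where means were kept.

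With the group means kept, the proteases had less like neighbours than the Itm2 genes, which did not hold with the means removed. The highest r over the 12 libraries was 0.974 for Furin (Gmpr, then Rnh1 at 0.971 and Otulin at 0.965). It was 0.879 for Sppl2a (Fam126b, then Mertk at 0.877 and Inpp5e at 0.874), and among the genes most like Sppl2b were Htt at 0.88 and Exo1 at 0.852. With the means removed, Furin was most like Isoc1 (0.963), Ptpn1 (0.96) and Nmt1 (0.955), Sppl2a like Mat2b (0.957), Vgll4 (0.946) and Heatr5b (0.941), and Sppl2b like Iqsec1 (0.974), Htt (0.922) and Bcl7a (0.921). Among the members, Itm2b and Itm2c had an r of 0.981 over the 12 libraries and 0.699 with the means removed, and Itm2a and Itm2b -0.927 and -0.329.

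The makeup of the family shifted with the strain. Per kilobase, Itm2b was 76.58% ± 0.467 of the summed Itm2 level in WT veh and 73.4% ± 0.705 in App NL-G-F veh libraries (SD, n = 3), Itm2c was 20.45% ± 0.339 and 25.31% ± 0.37, and Itm2a was 2.974% ± 0.132 and 1.284% ± 0.336. Each share did not overlap between the strains, with an exact permutation p of 0.1, the smallest possible with 3 against 3, and adjusted p-values over 4 comparisons of 0.133, 0.2 and 0.133. In the treated mice the Itm2b share was 77.17% ± 0.525 in WT and 74.53% ± 0.714 in App NL-G-F libraries, again with an exact permutation p of 0.1. Within App NL-G-F mice the Itm2b share was higher with treatment than with veh, at 74.53% against 73.4%. The Itm2a share was lower, at 0.7468% against 1.284%. Both had an exact permutation p of 0.1 (adjusted p 0.133), and the Itm2c share had 0.3. Treatment in WT mice gave exact permutation p-values of 0.2 to 0.9 for the 3 shares. Itm2b thus remained the main Itm2 transcript in all 4 groups, and Itm2c took a larger share in App NL-G-F libraries. These shares do not depend on the scaling between libraries.

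Sppl2a exceeded Sppl2b by a similar ratio in every group. The log2 ratio per kilobase was 2.193 ± 0.1 in WT veh, 2.071 ± 0.131 in treated WT, 2.067 ± 0.121 in App NL-G-F veh and 2.063 ± 0.0665 in treated App NL-G-F libraries (SD, n = 3). In the 4 comparisons the exact permutation p lay between 0.3 and 1.

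The other genes of the pathway were taken from 6 lists with 37 genes, of which 28 passed the filter on low counts. With veh, 9 were called higher and 6 lower in App NL-G-F than in WT mice, and 9 and 6 under rh Bri2 BRICHOS R221E. Over all genes the shares were 20.1% and 16.9% under veh and 20.8% and 21.8% in the treated mice, and 6 of 28 lower genes lay near these shares. Of the 15 called under each treatment, 11 were called in the same direction under both, 6 higher and 5 lower, and this is 73.3% of either set. With total counts, 9 of these 11 kept direction and call under both treatments, 4 higher and 5 lower, and Hm13 and Mmp14 did not. Total counts also called 3 pathway genes under veh and 8 in the treated mice that were not called with TMM, all of them lower.

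Substrates of the SPPL2 proteases contained the largest differences. Of 7 listed, 6 passed the filter and 4 (Cd74, Tnf, Clec7a and Olr1) were called higher under each treatment. Over all genes, 20.1% were called higher under veh and 20.8% in the treated mice. Like the other lists, this one was chosen with earlier results of these data known. Cd74, the invariant chain of MHC class II and the best known SPPL2A substrate, had 316.6, 334.8 and 375.6 CPM in WT veh and 2836, 1973 and 2795 CPM in App NL-G-F veh libraries. The log2 fold change was 2.89 (SE 0.222) with an adjusted p of 1.63e-06 in edgeR. Its protease Sppl2a was not called in the same comparison with this scaling.

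Clec7a, the β-glucan receptor Dectin-1, had the largest fold change of the lists. It rose from 67.28 ± 3.66 to 1061 ± 115 CPM (SD, n = 3), a log2 fold change of 3.98 with an adjusted p of 4.3e-09 in edgeR. Tnf, the inflammatory cytokine, had a log2 fold change of 1.23 (adjusted p 0.00129), and Olr1, a receptor for oxidised lipoprotein, 1.65 (adjusted p 0.0069). Tmem106b, a lysosomal membrane protein, and Tfrc, the transferrin receptor, were not called, at 0.02 and -0.01. Fasl, the death receptor ligand, had at most 6 counts in a library.

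Adam10, the sheddase that releases the BRICHOS domain of Bri2, was lower in App NL-G-F mice. It had 327.3, 339.2 and 338.8 CPM in WT veh and 264.7, 261.1 and 271.6 CPM in App NL-G-F veh libraries, which did not overlap. The log2 fold change was -0.33 (SE 0.0427, adjusted p 9.55e-05 in edgeR), and -0.23 (adjusted p 0.00115) in the treated mice. Adam10 thus went down where Itm2b went up. Adam17, the related sheddase of Tnf, had -0.03 under veh (adjusted p 0.654) and 0.17 in the treated mice (adjusted p 0.0229), and the second value turned to -0.11 and lost its call with total counts. That call was also lost without the first or the third WT or the second or the third App NL-G-F library of the treated mice, with an adjusted p of up to 0.0713.

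Among the other signal peptide peptidases, Hm13 (listed as H13), the signal peptide peptidase itself, was called higher at 0.25 under veh (adjusted p 0.0191) and 0.34 in the treated mice (adjusted p 0.00286) in edgeR, and both calls were lost with total counts. The veh call was also lost without the first or second WT veh or the second or the third App NL-G-F veh library, with an adjusted p of up to 0.0775. Hm13 shares 760 exon bases with Gm26841 on the opposite strand. Sppl3, a Golgi protease that cuts glycosyltransferases, was not called, at -0.24 (adjusted p 0.121) and 0.04 (adjusted p 0.807). The veh value was called lower with total counts, at -0.43 (adjusted p 0.0104), and without the third App NL-G-F veh library, and the treated value turned to -0.23 with total counts. Sppl2c held at most 1 count in a library.

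Of the 8 other proprotein convertases, 6 passed the filter. Pcsk7, the convertase expressed as widely as Furin, was not called, at -0.03 under veh and 0.004 in the treated mice, where total counts turned it to -0.27 and called it lower (adjusted p 0.0282). Pcsk2, a convertase of neuroendocrine cells, was called lower, with 5.109 ± 1.13 CPM in WT veh and 1.615 ± 0.657 CPM in App NL-G-F veh libraries (SD, n = 3), a log2 fold change of -1.67 and an adjusted p of 0.00112 in edgeR. In the same libraries the 6 neuron markers summed to 18.31-23.26 CPM and 6.985-8.72 CPM, and their part was not tested. In the treated mice Pcsk2 had -2.89 (adjusted p 2.07e-05), Pcsk5 had -1.99 (adjusted p 0.0141), and Mbtps1, the site-1 protease, 0.16 (adjusted p 0.0461), a call lost with total counts and in 6 of the 12 fits that left out 1 library. Pcsk5 had only 1 to 7 counts in the treated App NL-G-F libraries and 16 to 21 in the treated WT libraries. Its adjusted p reached 0.0499 in edgeR with 1 library left out. Pcsk1 had at most 10 counts in a library.

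Of 7 BRICHOS domain genes outside the Itm2 family, Cnmd and Gkn3 passed the filter on low counts. Gkn1 and Gkn2 had no counts, which allows up to 0.168-0.241 CPM per library, and Tnmd and Sftpc had at most 1 count in a library. Bricd5 had 0 to 11 counts, and all its 997 exon bases overlap Mlst8 on the opposite strand. Gkn3, a gene known from brain arteries, had 44 to 183 counts in a library, with 8.884 ± 2.45 CPM in WT veh and 4.255 ± 1.03 CPM in App NL-G-F veh libraries (SD, n = 3), a log2 fold change of -1.06 and an adjusted p of 0.0136 in edgeR. It lost this call without the second WT veh or the first App NL-G-F veh library, with an adjusted p of up to 0.057. In the same groups the 6 mural cell markers summed to 190.8-214.8 CPM and 117.8-176.4 CPM, with 1 of 6 called lower. The 6 endothelial markers summed to 577.9-648 CPM and 425.2-571.3 CPM, with 5 of 6 called lower. The part of either cell type was not tested. Cnmd, which encodes chondromodulin, had 1 to 17 counts in a library, a log2 fold change of 1.61 and an adjusted p of 0.0442, and lost its call in 7 of the 12 fits that left out 1 library.

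Furin clients showed small differences in both directions. With veh, 3 of 10 were called higher and 3 lower, against 20.1% and 16.9% of all genes. Mmp14, a membrane metalloprotease activated by furin, had 0.46 (adjusted p 0.00394), Sorl1, a sorting receptor of APP, 0.26 (adjusted p 0.0223), and Igf1r 0.25 (adjusted p 0.0446) in edgeR. The receptors Notch2, Notch1 and Insr had -0.31 (adjusted p 0.00457), -0.24 (adjusted p 0.0147) and -0.24 (adjusted p 0.0137). With total counts Sorl1 and Igf1r were not called. Leaving out 1 library, Igf1r lost its call in 9 of 12 fits. Sorl1 lost it without the second or the third WT veh or the second or the third App NL-G-F veh library, and Notch1 and Insr without the first App NL-G-F veh library, with adjusted p-values of up to 0.0887, 0.0974 and 0.0542. In the treated mice 2 were called higher and 2 lower, near the 20.8% and 21.8% of all genes. These were Tgfb1 at 0.46 (adjusted p 0.00227), Mmp14 at 0.27 (adjusted p 0.0472), Notch1 at -0.36 (adjusted p 0.00112) and Insr at -0.22 (adjusted p 0.0199), and the Tgfb1 and Mmp14 calls were lost with total counts. Mmp14 also lost this call in 9 of the 12 fits that left out 1 library, and Insr without the first WT or the second App NL-G-F library of the treated mice, with an adjusted p of up to 0.0951.

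**Figure D4:**
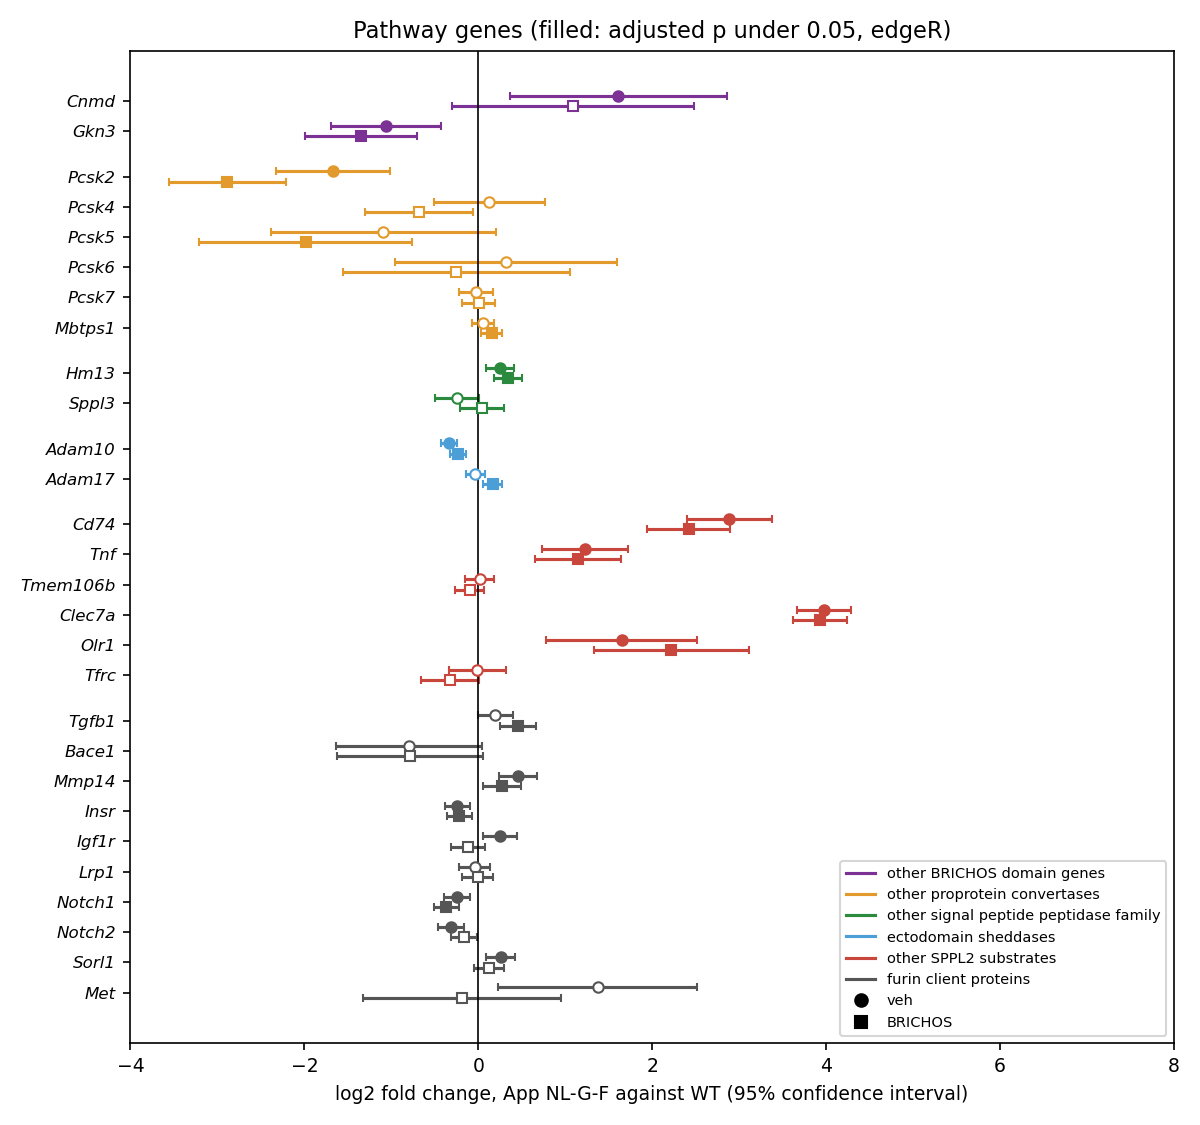
Log2 fold changes of the 28 pathway genes that passed the filter, App NL-G-F against WT, with 95% confidence intervals. Circles are veh mice, squares are mice given rh Bri2 BRICHOS R221E, colours are the 6 lists, and filled symbols have an adjusted p under 0.05 in edgeR. Clec7a and Cd74 lie farthest to the right and Pcsk2 farthest to the left, and with total counts in place of TMM Pcsk4, Mbtps1 and Tmem106b under veh and Pcsk7, Mbtps1, Sppl3, Adam17, Mmp14 and Sorl1 in the treated mice turn from positive to negative.

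None of the 28 pathway genes was called with treatment in either strain in edgeR, and DESeq2 on all libraries called 0 as well. DESeq2 on the compared groups alone called 1 (Cd74, in WT mice), against 134 of 14821 genes. At an unadjusted p under 0.05, 2 genes were lower in App NL-G-F mice (Igf1r and Notch1), and in WT mice 2 were higher (Cd74 and Pcsk2) and 3 lower (Adam10, Adam17 and Notch2). At this threshold the shares over all genes were 7.67% lower for App NL-G-F treatment, and 6.55% higher with 4.83% lower for WT treatment. The 2 of 28 genes lower in App NL-G-F mice and the 2 of 28 higher in WT mice lay near these shares. In WT mice Adam10 had 312.9, 303.7 and 301.1 CPM with rh Bri2 BRICHOS R221E and 327.3, 339.2 and 338.8 CPM with veh. These values did not overlap, with a log2 fold change of -0.13 and an adjusted p of 0.289 in edgeR. Cd74 had 492.2, 700.2 and 569.9 CPM in treated and 316.6, 334.8 and 375.6 CPM in veh WT libraries, a log2 fold change of 0.78 with an adjusted p of 0.243 in edgeR. DESeq2 on these groups alone gave an adjusted p of 1.38e-07. In App NL-G-F mice Cd74 overlapped between the treated libraries, at 2643, 4253 and 2528 CPM, and the veh libraries, at 2836, 1973 and 2795 CPM.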

How the data were processed

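The authors isolated CD11b+ cortical cells, prepared stranded mRNA libraries and deposited raw read counts per Ensembl gene. Per the labels, FastQC 0.11.8, STAR 2.6.1d and featureCounts 1.5.1 were used with GRCm38, and the strand setting is not given in the sources used here. The members and all lists were chosen with earlier results of these data known. Counts were taken as deposited, and 55227 of 55487 genes were given a symbol from GENCODE M21. In R 4.3.3, genes were kept by filterByExpr in edgeR 4.0.16 with a minimum count of 10, scaled by TMM, and tested with the quasi-likelihood F-test over 4 group means from all 12 libraries. P-values were adjusted by Benjamini-Hochberg over 15425 genes. DESeq2 1.42.0 (Wald test) was an alternative. The fit was tested on simulated counts. CPM values use TMM library sizes, and a floor of 3 counts equals 0.168-0.241 CPM. This floor covers counting error only. Shares and ratios were compared with two-sided exact permutation tests. All 6 members were named. Pathway genes were named when called, together with Adam10, Hm13, Sppl3 and Pcsk7, and Tmem106b, Tfrc, Adam17, Tnmd, Sftpc, Gkn1, Gkn2, Bricd5, Pcsk1, Fasl and Sppl2c were named after their values were seen. The 3 genes most like each member by Pearson r were also named, except 1 that is not reported here. Libraries of a group differed by more than sampling noise (chi-square per degree of freedom 5.84-34.5). The libraries are taken as separate mice from their labels.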

Additional observations from a re-analysis of the deposited data

How the results depend on the processing

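The limits are 3 libraries per group, the scaling between strains and cells other than microglia. Of 240 member fold changes under other settings, 227 kept direction and side of the threshold, and of 360 with 1 library left out, 340 did. Requiring an absolute log2 fold change of at least 1 left 0 members under veh and 1 under rh Bri2 BRICHOS R221E, and 7 pathway genes under each. The share of all genes at this threshold was not counted, so these counts cannot be read as many or few. At an unadjusted p, 1 member passed in App NL-G-F treatment, WT treatment and their difference, and 2, 5 and 3 pathway genes. Over all 15425 genes, 1673, 1755 and 2279 passed. DESeq2 on all libraries called 1 member (Itm2a, App NL-G-F treatment), and on compared groups alone 1 pathway gene (Cd74, WT treatment). The first called 86 of 15425 genes in that comparison and the second 134 of 14821. With total counts, Sppl2b had -0.11 between strains under veh, -0.23 in treated mice and 0.021 for WT treatment, Sppl2a had -0.24 between treated strains and -0.002 for the difference of treatment effects, Itm2c had -0.003 for App NL-G-F treatment and Itm2b 0.003 for WT treatment, and the cause was not tested. With 10 counts in every library, Sppl2b had 0.008 for WT treatment. Leaving out 1 library, log2 fold changes ranged for WT treatment from -0.024 to 0.077 (Furin), -0.075 to 0.004 (Itm2b) and -0.089 to 0.044 (Sppl2b), between treated strains from -0.004 to 0.057 (Sppl2a) and -0.038 to 0.116 (Sppl2b), and for Sppl2b from -0.134 to 0.023 for App NL-G-F treatment and -0.12 to 0.037 for the difference. The log2 ratio of Sppl2a to Sppl2b ranged from -0.0794 to 0.0487 between treated strains and -0.0732 to 0.034 for App NL-G-F treatment. Replicate numbers are shared by the groups but deviations of same-numbered libraries correlated at -0.015 to 0.227, so the numbers were not taken as pairs. With the replicate block, 4 members were called between strains under veh, 4 in treated mice and 0 with treatment, and 17, 17 and 0 pathway genes. Over all 15425 genes, this setting called 5991 under veh, 6822 in treated mice and 0 with treatment in either strain.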
